A study of Rattus norvegicus with 6 samples.

Results

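The family of miR-15, miR-16, miR-195 and miR-497 was taken as every annotated row of the table named miR-15a, miR-15b, miR-16, miR-195 or miR-497, with either arm. This gave 10 of 1465 rows, of which 694 were annotated rat microRNAs (miRNAs) and 771 were predicted by the authors. Of the 10 rows, 8 had a value in every library, and miR-15a-3p and miR-497-3p were blank in all 6 libraries and are counted as 0. The tissue was medial prefrontal cortex of rats, with 3 rats exposed to chronic mild stress (CMS) and 3 Control rats, 1 library per rat. CMS rats met a random sequence of mild stressors over 4 weeks, namely foot shock, restraint, tail clipping, swimming in cold water, withheld food or water, a tilted cage and a reversed light cycle. Control rats stayed undisturbed over the same 4 weeks, apart from handling and cleaning. Strain, sex and age are not given in the labels. Values are normalized expression values, rounded to whole numbers, with sums of 709674 to 736078 per library, and the number of reads behind them is unknown.

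A miRNA is cut from a hairpin precursor, whose left side gives the 5p arm and whose right side gives the 3p arm. Its seed, bases 2 to 8, pairs with messenger RNAs and lowers their output. Family members share a seed on the 5p arm and are known to repress cell cycle and survival genes such as cyclins and Bcl2. In mice, miR-16 is known to lower the serotonin transporter, the target of many antidepressants, in cells that make or take up serotonin. The family is encoded in pairs: miR-15b with miR-16, miR-497 with miR-195, and, in humans and mice, miR-15a with a further copy of miR-16 that gives the same mature miRNA.

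RefSeq (GRCr8 build) held a mature sequence for 8 of the 10 rows and for 4 of the 5 mature 5p arms. These 4 are shown because they carry the results below. Capitals mark the seed.

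rno-miR-16-5p: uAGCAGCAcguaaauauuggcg
rno-miR-195-5p: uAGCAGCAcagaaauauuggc
rno-miR-15b-5p: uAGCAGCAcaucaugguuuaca
rno-miR-497-5p: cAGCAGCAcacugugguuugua

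All 4 have the seed AGCAGCA, which 5 of 724 mature rat sequences in the RefSeq table carry, the fifth being miR-322-5p. After base 8 the sequences fall into pairs that cross the genomic clusters. The mature miR-16-5p and miR-195-5p were identical at 11 of 13 positions after base 8, and miR-15b-5p and miR-497-5p at 9 of 14. Cluster partners were less alike there: miR-16-5p and miR-15b-5p matched at 6 of 14 positions, and miR-195-5p and miR-497-5p at 5 of 13. In GRCr8, miR-15b-5p lies at chr2:155555197-155555218 and miR-16-5p at chr2:155555343-155555364, both on the plus strand, with 146 bases between their starts. Both miRNA genes lie within the span of Smc4, which encodes a condensin subunit. The mature miR-497-5p lies at chr10:55450172-55450193 and miR-195-5p at chr10:55450509-55450529, also on the plus strand, with 337 bases between their starts. No other gene of the RefSeq table spans these, and the next gene after Mir195 is C10h17orf49.

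Rows differed in which Control library stood apart. For miR-451-5p it was Control 2, with 64, 186 and 51 in Control 1, 2 and 3. For miR-128-3p it was Control 1. The neuronal miRNA miR-128-3p was at 18158 in Control 1 and at 54214 and 54272 in Controls 2 and 3, against 28999, 16153 and 19969 in CMS 1, 2 and 3. Results below are also given without Control 1 where this changes a call or moves a value by more than 1.5 times. The rows above name different libraries, so leaving out Control 1 is not the only possible choice. Nothing in the labels says more about how the samples were handled, so p-values measure the spread between these 6 libraries.

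The level of rno-miR-16-5p was the highest in the family in each of the 6 libraries, followed by rno-miR-195-5p, rno-miR-497-5p, miR-15a-5p and rno-miR-15b-5p (written below without the species prefix rno). Ranges of neighbours in this order did not overlap: over all libraries miR-16-5p lay between 917 and 1276, miR-195-5p between 372 and 629, miR-497-5p between 128 and 170, miR-15a-5p between 28 and 53, and miR-15b-5p between 8 and 21. By mean level, miR-16-5p ranked 78 and miR-195-5p 116 among annotated miRNAs, while miR-497-5p ranked 182, miR-15a-5p 266 and miR-15b-5p 332. Sequencing libraries take up different miRNAs with different efficiency, so levels of different miRNAs compare only approximately. The sequence pair miR-16-5p and miR-195-5p thus held the high levels, 1 from each cluster, and miR-15b-5p and miR-497-5p were the lower members of their clusters. Any copy of miR-16 beside miR-15a, as in humans and mice, would be counted in the same row of miR-16-5p.

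**Figure D1:**
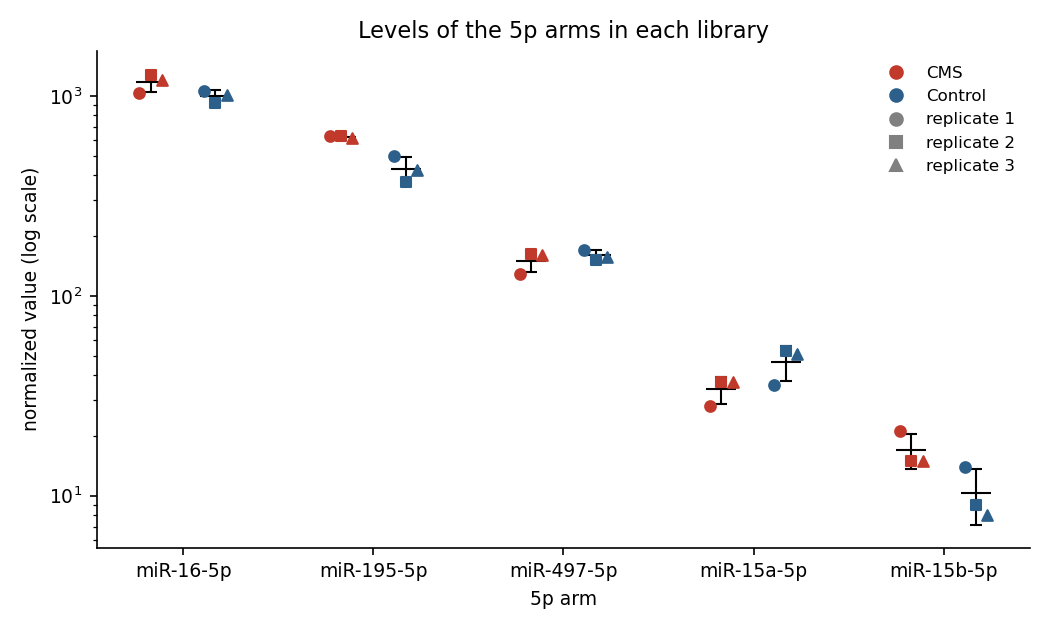
Normalized values (log axis) of the 5p arms in each library, with CMS left of Control for each miRNA, marker shape giving the replicate number, and bars giving mean ± SD (n = 3). The order of levels was the same in all 6 libraries, and miR-195-5p and miR-15b-5p were higher in each CMS library than in any Control library, which for miR-15b-5p did not hold after rescaling.

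No family row passed the test for a difference between CMS and Control (0 of 8, limma-trend with Benjamini-Hochberg adjustment over 657 rows tested, adjusted p under 0.05). Over all rows tested, 4.11% passed. At an unadjusted p under 0.05 there were 2 of 8 family rows, against 23.3% of all rows. The groups did not overlap for 2 of 8 family rows, against 25.9% of all rows, so these shares lie near the background. The 2 rows were miR-195-5p and miR-15b-5p in both counts. With trimmed-mean rescaling and with quantile normalization the 2 rows whose groups did not overlap were miR-195-5p and miR-15a-5p, against 30.4% and 24.4% of all rows. Of the 8 rows, 5 had a positive log2 difference, against 56.5% of all rows, and the median was 0.19, against 0.08 over all rows tested. Rescaling the libraries by a trimmed mean of log ratios moved the median of all rows by -0.11 and quantile normalization by -0.10, and the 5 mature 5p arms kept the sign of their difference under both.

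The level of miR-195-5p, the second most abundant member, was 627, 629 and 617 in CMS 1, 2 and 3, against 500, 372 and 424 in Control 1, 2 and 3. On the deposited scale the CMS libraries lay close together and above each Control library. Means were 624 ± 6.43 in CMS and 432 ± 64.4 in Control (SD, n = 3 each), a ratio of 1.45. The log2 difference was 0.54 ± 0.13 (SE, limma adjusted p = 0.0819; 95% interval 0.22 to 0.87, not adjusted for the number of rows tested). Without Control 1 it was 0.65 and passed (limma adjusted p = 0.0291). Control 1 had the highest Control value, so leaving it out widens the difference. With any other library left out, the log2 difference did not pass (limma adjusted p of 0.161 to 0.216). Over all rows, 55 of 645 passed without Control 1, against 27 of 657 with all libraries. After rescaling by a trimmed mean the log2 difference of miR-195-5p was 0.42 (limma adjusted p = 0.166), and after quantile normalization 0.45 (limma adjusted p = 0.228). The CMS libraries were then less close together. CMS 1, 2 and 3 were at 576, 642 and 578 by a trimmed mean, with Control at up to 536. By quantile normalization they were at 576, 627 and 568, with Control at up to 557.

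The level of miR-16-5p, the member tied to the serotonin transporter, was 1037, 1276 and 1207 in CMS 1, 2 and 3, against 1054, 917 and 1015 in Control 1, 2 and 3. The groups overlapped, since CMS 1 lay below Control 1. Means were 1173 ± 123 in CMS and 995 ± 70.6 in Control (SD, n = 3 each). The log2 difference of 0.23 ± 0.12 (SE) did not pass (limma adjusted p = 0.266; 95% interval -0.06 to 0.53). With trimmed-mean rescaling it was 0.11 and with quantile normalization 0.13, so more than 1.5 times smaller under each.

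The lower cluster partner miR-15b-5p had 21, 15 and 15 in CMS 1, 2 and 3, against 14, 9 and 8 in Control 1, 2 and 3. Each CMS library was higher than any Control library, by as little as 1 unit. After rescaling the groups overlapped, with CMS at 14.05 or more and Control at up to 15.02 by a trimmed mean, and CMS at 13.5 or more and Control at up to 16.1 by quantile normalization. Means were 17 ± 3.46 in CMS and 10.3 ± 3.21 in Control (SD, n = 3 each), and the log2 difference of 0.69 ± 0.26 (SE) did not pass (limma adjusted p = 0.184). With a pseudocount of 10 it was 0.41. At such levels a rounded unit is a sizeable part of the value.

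The paralogue miR-15a-5p differed in the other direction. Its level was 28, 37 and 37 in CMS 1, 2 and 3, against 36, 53 and 51 in Control 1, 2 and 3, so that the groups overlapped through Control 1. After rescaling they did not overlap, with CMS at up to 37.8 and Control at 38.6 or more by a trimmed mean, and CMS at up to 35.9 and Control at 40.8 or more by quantile normalization. Means were 34.0 ± 5.20 in CMS and 46.7 ± 9.29 in Control (SD, n = 3 each), and the log2 difference of -0.44 ± 0.21 (SE) did not pass (limma adjusted p = 0.245, and 0.0998 without Control 1). Its level was 1.33, 2.47 and 2.47 times that of miR-15b-5p in CMS 1, 2 and 3, and 2.57, 5.89 and 6.38 times in Control 1, 2 and 3. This ratio was not tested between the groups. Reads of closely similar mature miRNAs can be split between rows in ways that depend on the alignment, and how the authors treated them is not given.

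The level of miR-497-5p, the partner of miR-195-5p, was 128, 162 and 160 in CMS 1, 2 and 3, against 170, 151 and 157 in Control 1, 2 and 3. The groups overlapped, with SDs of 19.1 in CMS and 9.71 in Control (n = 3 each), and the CMS mean was 0.941 times the Control mean. The log2 difference of -0.09 ± 0.14 (SE) did not pass (limma adjusted p = 0.71; 95% interval -0.43 to 0.24), and it turned positive without CMS 1, at 0.017. It was -0.05 without Control 1, -0.15 without CMS 2, -0.14 without CMS 3, -0.22 with trimmed-mean rescaling and -0.18 with quantile normalization. In a bulk tissue sample, fewer cells that make a miRNA and less of it per cell cannot be told apart.

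**Figure D2:**
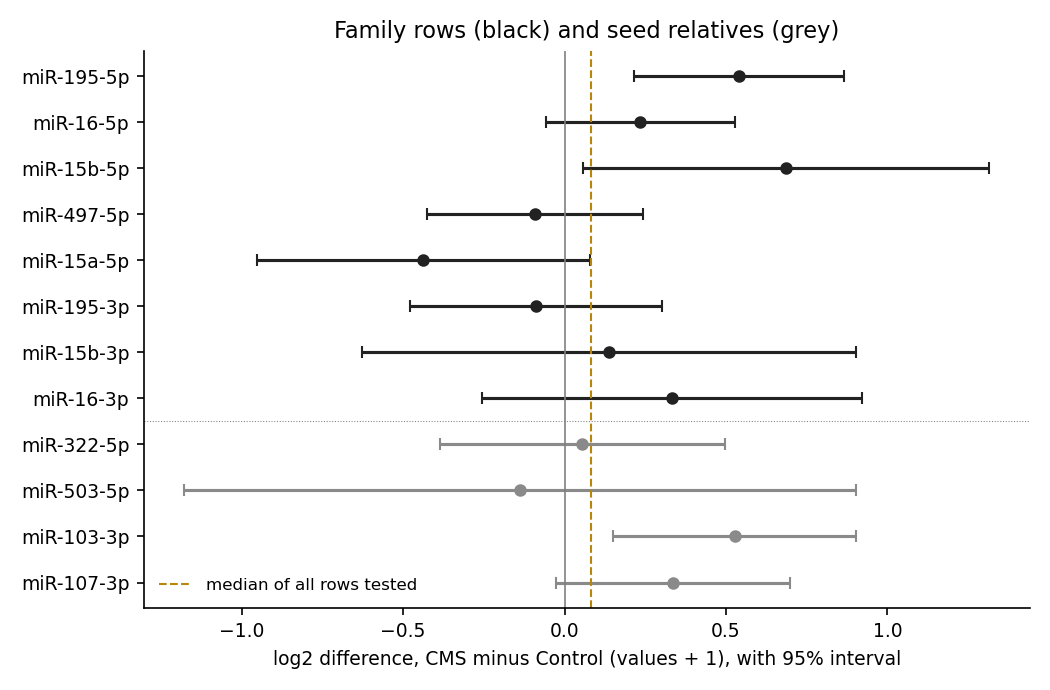
Log2 difference (CMS minus Control, on values + 1) of the 8 family rows with a value and, below the dotted line, of 4 miRNAs with the same or a related seed. Bars give the limma 95% interval, not adjusted for the number of rows tested, and the dashed line is the median of all rows tested (0.08). Intervals of miR-195-5p and miR-15b-5p lie above 0, and those of the other 6 family rows include 0.

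Summed over the 5 mature 5p arms, the family had 1841, 2119 and 2036 in CMS 1, 2 and 3, against 1774, 1502 and 1655 in Control 1, 2 and 3. This was 0.250%, 0.299% and 0.287% of the library in CMS and 0.241%, 0.209% and 0.229% in Control. The sums did not overlap, and the mean difference was 355 ± 114 (SE; exact two-sided permutation p = 0.1, the smallest that 3 against 3 can give). With trimmed-mean rescaling the difference was 201.6 and with quantile normalization 224.2 (exact permutation p = 0.4 for each).

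Shares of each 5p arm in that sum do not depend on the scale of a library. The share of miR-195-5p was 34.1%, 29.7% and 30.3% in CMS 1, 2 and 3, against 28.2%, 24.8% and 25.6% in Control 1, 2 and 3. Each CMS share was above each Control share, by 5.16 ± 1.71 percentage points on average (SE). The share of miR-497-5p was 6.95%, 7.65% and 7.86% in CMS 1, 2 and 3, against 9.58%, 10.1% and 9.49% in Control 1, 2 and 3. Here each CMS share was below each Control share, and the mean difference was -2.22 ± 0.32 percentage points (SE). The share of miR-15a-5p was also below the Control range in each CMS library, at 1.69% ± 0.155 in CMS and 2.88% ± 0.77 in Control (SD, n = 3 each). The shares of miR-16-5p overlapped, at 58.6% ± 2.03 in CMS and 60.6% ± 1.04 in Control, and so did those of miR-15b-5p, at 0.862% ± 0.242 in CMS and 0.624% ± 0.154 in Control (SD, n = 3 each). Without CMS 1 the difference of the share of miR-16-5p was -0.848 percentage points, against -1.99 with all libraries, and that of miR-15b-5p was 0.0984, against 0.238. The exact two-sided permutation p was 0.1 for miR-195-5p, miR-497-5p and miR-15a-5p, 0.2 for miR-16-5p and 0.3 for miR-15b-5p, and the smallest of these was 0.167 after adjustment over the 5 shares. Shares of a whole are tied to each other, so a higher share of one arm lowers the others. Of single rows, 25.9% did not overlap between the groups, and no such background was computed for shares.

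**Figure D3:**
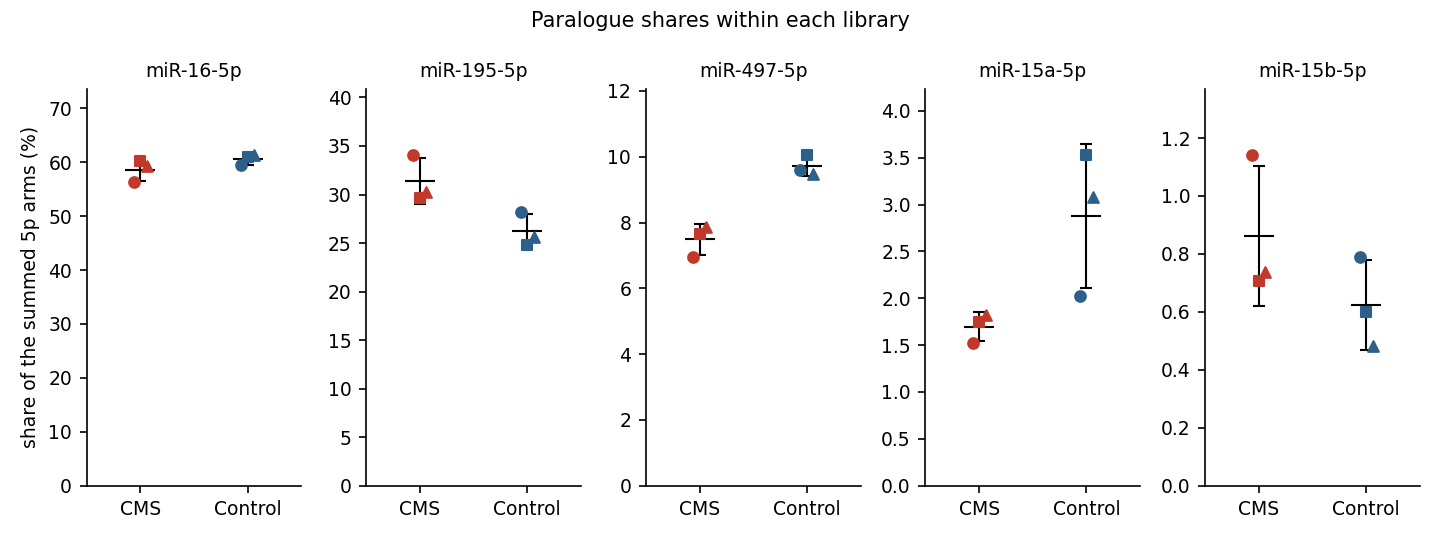
Share of each 5p arm in the sum of the 5p arms of its library, in percent, with CMS left of Control. Points are libraries, their shape gives the replicate number as in the plot of levels, bars give mean ± SD (n = 3), and each panel has its own axis starting at 0. Shares of miR-195-5p were higher, and those of miR-497-5p and miR-15a-5p lower, in each CMS library than in any Control library.

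Within the cluster of miR-497 and miR-195, whose members are processed from neighbouring hairpins, the ratio of miR-195-5p to miR-497-5p was 4.90, 3.88 and 3.86 in CMS 1, 2 and 3, against 2.94, 2.46 and 2.70 in Control 1, 2 and 3. The lowest CMS ratio lay above the highest Control ratio, though 25.9% of single rows did not overlap either and other ratios were not counted. On the log2 scale the difference was 0.64 ± 0.14 (SE; exact two-sided permutation p = 0.1, adjusted over 3 ratios p = 0.3), and it lay between 0.52 and 0.70 when any 1 library was left out. Within the cluster of miR-15b and miR-16 the level of miR-16-5p was 49.4, 85.1 and 80.5 times that of miR-15b-5p in CMS 1, 2 and 3, against 75.3, 101.9 and 126.9 times in Control 1, 2 and 3. These ranges overlapped (difference of log2 miR-15b-5p over miR-16-5p 0.51 ± 0.33, SE, exact permutation p = 0.3), and the difference was 0.26 without CMS 1, 0.33 without Control 3 and 0.18 with a pseudocount of 10. The sum of miR-497-5p and miR-195-5p was 0.714, 0.613 and 0.636 times that of miR-15b-5p and miR-16-5p in CMS 1, 2 and 3, and 0.627, 0.565 and 0.568 times in Control 1, 2 and 3, which also overlapped (exact permutation p = 0.2). On the log2 scale this difference was 0.16, and 0.09 without CMS 1. The row of miR-16-5p would also hold any copy encoded beside miR-15a. Ratios with miR-16-5p therefore need not reflect the cluster of miR-15b and miR-16 alone.

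**Figure D4:**
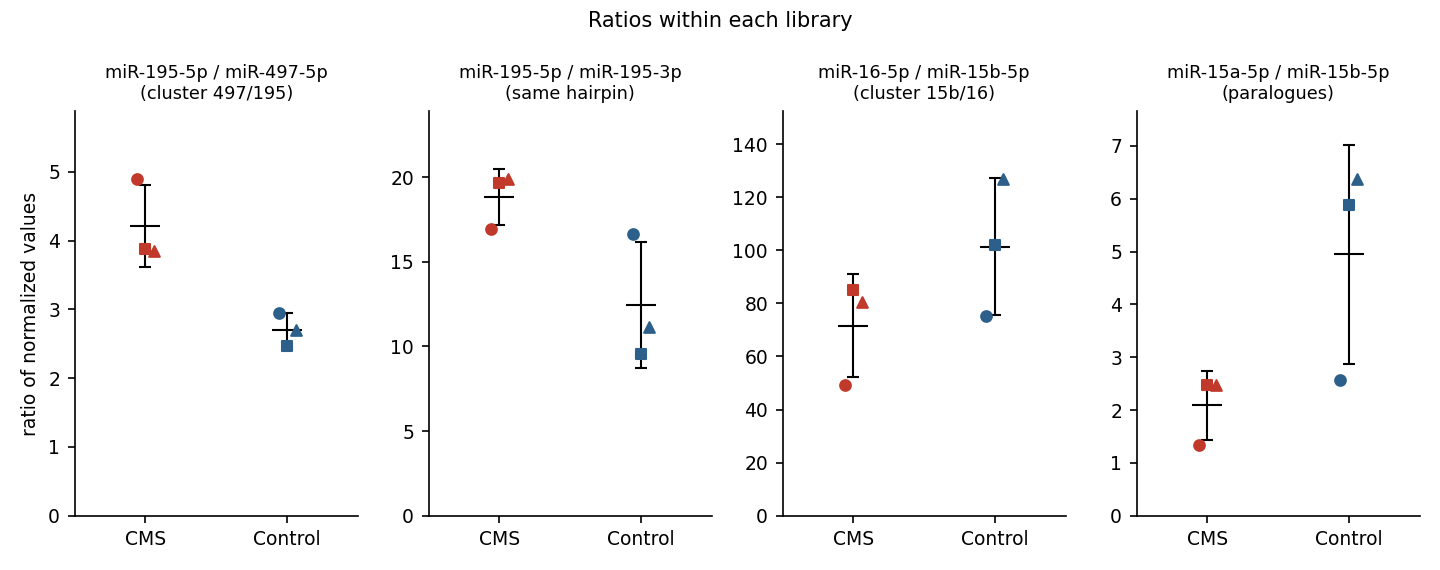
Ratios of normalized values within each library, with CMS left of Control. Points are libraries, their shape gives the replicate number as in the plot of levels, bars give mean ± SD (n = 3), and each panel has its own axis starting at 0. Ratios of miR-195-5p to miR-497-5p, of miR-195-5p to miR-195-3p and of miR-15a-5p to miR-15b-5p did not overlap between the groups, and ratios of miR-16-5p to miR-15b-5p did. The ratio of miR-15a-5p to miR-15b-5p was not tested.

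The hairpins of miR-195, miR-16 and miR-497 are shown to place the 5p and 3p arms. Arm ratios were fitted for miR-195, miR-16 and miR-15b. There is none for miR-497, whose 3p arm was blank, and the hairpin of miR-15b is not shown. Capitals mark the mature arms, the 5p arm first.

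Mir195: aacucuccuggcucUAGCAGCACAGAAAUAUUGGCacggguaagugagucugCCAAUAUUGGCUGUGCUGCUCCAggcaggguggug
Mir16: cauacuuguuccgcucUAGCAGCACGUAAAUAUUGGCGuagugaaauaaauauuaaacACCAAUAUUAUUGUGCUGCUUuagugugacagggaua
Mir497: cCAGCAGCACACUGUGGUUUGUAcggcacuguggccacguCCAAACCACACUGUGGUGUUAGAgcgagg

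The 3p arms carry other seeds, and each had a lower level than the 5p arm of its hairpin in every library. The level of miR-195-3p was 37, 32 and 31 in CMS 1, 2 and 3, against 30, 39 and 38 in Control 1, 2 and 3, and the groups overlapped (log2 difference -0.09 ± 0.16, SE, limma adjusted p = 0.769). It was -0.21 without Control 1 and with trimmed-mean rescaling, and -0.31 with quantile normalization. The ratio of miR-195-5p to miR-195-3p was 16.95, 19.7 and 19.9 in CMS 1, 2 and 3, against 16.7, 9.54 and 11.2 in Control 1, 2 and 3. The groups did not overlap, with Control 1 just under CMS 1. In a fit over 144 hairpins with both arms measured, 7.64% changed their arm ratio, and 0 of 3 family hairpins did (limma-trend, adjusted p under 0.05; 1 of 3 at an unadjusted p under 0.05, that of miR-195, against 29.2% of all hairpins). For miR-195 the log2 difference of the arm ratio was 0.63 ± 0.25 (SE, limma adjusted p = 0.135). With Control 2, Control 3 or any CMS library left out it did not pass (limma adjusted p of 0.193 to 0.359). It passed without Control 1, at 0.86 (limma adjusted p = 0.0186), and with a pseudocount of 10, at 0.60 (limma adjusted p = 0.0456). The share of all hairpins that passed under these settings was not counted, so these calls have no background beside them.

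The level of miR-15b-3p was 7, 3 and 4 in CMS 1, 2 and 3, against 3, 5 and 4 in Control 1, 2 and 3, so that the ratio of miR-15b-5p to miR-15b-3p was as low as 1.80 in Control 2. That of miR-16-3p was 3, 2 and 2 in CMS 1, 2 and 3, against 2, 1 and 2 in Control 1, 2 and 3. Both overlapped between the groups, and the log2 difference of miR-15b-3p was 0.14, between -0.14 and 0.36 when any 1 library was left out, and -0.01 without Control 1. Rounding sets most of what can be read at these levels. The arm ratio of miR-15b had a log2 difference of 0.55 ± 0.32 (SE, limma adjusted p = 0.257), and without Control 1 it was 0.92 and passed (limma adjusted p = 0.0186). With any other library left out it did not pass (limma adjusted p of 0.282 to 0.545). Here too the share of all hairpins that passed without Control 1 was not counted. The arm ratio difference of miR-15b was 0.34 without Control 2 and 0.35 with a pseudocount of 10. That of miR-16 was -0.10 ± 0.29 (SE, limma adjusted p = 0.8) and was -0.15 without Control 1. It turned positive without Control 2, without CMS 1 and with a pseudocount of 10, at 0.04, 0.13 and 0.15.

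Relatives by seed were compared next. The fifth carrier of the seed, miR-322-5p (the rodent counterpart of human miR-424), had 21, 18 and 26 in CMS 1, 2 and 3, against 19, 23 and 20 in Control 1, 2 and 3. Its cluster neighbour miR-503-5p, which has another seed, lay between 1 and 5. Neither passed (limma adjusted p = 0.896 and 0.885). The miRNAs miR-103-3p and miR-107-3p carry the same letters shifted by 1 base, starting at base 1. Capitals mark their own seed, bases 2 to 8, so the shared AGCAGCA begins at the lower-case base before the capitals.

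miR-103-3p: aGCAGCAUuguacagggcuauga
miR-107-3p: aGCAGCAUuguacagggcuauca

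They differ from each other at 1 of 23 positions, since 22 were identical. The level of miR-103-3p was 5992, 6451 and 5261 in CMS 1, 2 and 3, against 4713, 3407 and 4230 in Control 1, 2 and 3. Each CMS library was above each Control library, and the log2 difference was 0.53 ± 0.15 (SE, limma adjusted p = 0.116, and 0.0445 with quantile normalization, where it was 0.71). With quantile normalization 23 of 657 rows passed. The level of miR-107-3p was 967, 944 and 1007 in CMS 1, 2 and 3, against 921, 648 and 766 in Control 1, 2 and 3. Its groups did not overlap either, with CMS at 944 or more and Control at up to 921. Of all rows, 25.9% did not overlap. The log2 difference of miR-107-3p, 0.34 ± 0.15 (SE), did not pass (limma adjusted p = 0.226). With trimmed-mean rescaling and without Control 2 it was 0.21. These 2 have nearly the same sequence, so their values may share reads.

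Of 5 miRNAs that published work ties to the serotonin transporter transcript (miR-16-5p, miR-15a-5p, miR-135a-5p, miR-135b-5p and miR-24-3p), 0 passed (limma-trend, 1 at an unadjusted p under 0.05, against 23.3% of all rows) and 4 had a positive log2 difference, against 56.5% of all rows. The groups did not overlap for 1 of the 5, against 25.9% of all rows, namely for miR-24-3p. It was at 1437, 1504 and 1397 in CMS 1, 2 and 3, against 912, 1021 and 1188 in Control 1, 2 and 3, with a log2 difference of 0.48 ± 0.12 (SE, limma adjusted p = 0.0856). The level of miR-135a-5p, which represses the transporter in mouse serotonin neurons, was 361, 258 and 357 in CMS 1, 2 and 3, against 235, 303 and 308 in Control 1, 2 and 3, and overlapped. Serotonin neurons have their cell bodies in the raphe nuclei of the brainstem and send fibres to the prefrontal cortex.

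Patterns across the 6 libraries were compared as the root mean square distance between log2 values, each centred on its own mean, over 346 other annotated miRNAs with a mean of at least 10. The nearest to miR-195-5p were miR-25-3p (0.054), miR-93-5p (0.0657) and miR-3068-3p (0.0748). Its own relatives stood further down, with miR-16-5p at rank 44, miR-15b-5p at 69, its cluster partner miR-497-5p at 156 and miR-15a-5p at 283. The nearest to miR-16-5p were miR-99b-3p (0.062), miR-378a-3p (0.067) and miR-320-3p (0.078), with miR-497-5p at rank 41, miR-195-5p at 63 and its cluster partner miR-15b-5p at 231. The nearest to miR-15b-5p were miR-181b-5p (0.11), miR-135a-3p (0.112) and miR-181a-5p (0.114). The nearest to miR-15a-5p were miR-340-5p (0.0386), miR-341 (0.0702) and miR-29b-3p (0.0911), and the nearest to miR-497-5p were miR-652-3p (0.0954), miR-3068-5p (0.103) and miR-873-5p (0.103). No 5p arm of the family was thus among the 3 nearest of another. At the level of miR-16-5p, the 6 annotated miRNAs ranked next to it had log2 differences of -1.25 (miR-543-3p) to 0.64 (miR-181b-5p), and none passed.

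Levels of cell type markers were summed per library, since several kinds of cells make the family. Neuronal markers (4 of 4 listed with values) summed to between 90647 and 98699 in CMS and between 80985 and 110572 in Control, and the brain miRNA miR-9a-5p was at 52742 or more in every library. Directions differed within this list. Log2 differences were 0.33 for miR-9a-5p, 0.17 for miR-138-5p and 0.07 for miR-124-3p, against -0.84 for miR-128-3p. Vascular and mural markers (4 of 4) summed to between 19068 and 30285 in CMS and between 17980 and 22362 in Control. Their log2 differences were 0.78 for miR-145-5p, 0.32 for miR-126a-3p, 0.10 for miR-143-3p and -0.01 for miR-126a-5p. Of these 4, 1 did not overlap between the groups, miR-145-5p, against 25.9% of all rows. Red blood cell markers (4 of 4) summed to between 260 and 443 in CMS and between 177 and 351 in Control. They also differed in direction, with log2 differences of 1.29 for miR-451-5p, against -0.92 for miR-144-3p, -0.63 for miR-144-5p and -0.13 for miR-486. Myeloid and lymphocyte markers (5 of 5) summed to between 925 and 1304 in CMS and between 869 and 903 in Control, which did not overlap. Of these 5, 2 had a positive log2 difference (miR-150-5p at 0.73 and miR-223-3p at 0.61) and 3 a negative one (miR-142-3p at -0.73, miR-142-5p at -0.09 and miR-146a-5p at -0.06). Without miR-150-5p the other 4 summed to between 337 and 499 in CMS and between 442 and 476 in Control, which overlapped. The lymphocyte miRNA miR-150-5p was at 806, 588 and 727 in CMS 1, 2 and 3, against 432, 427 and 412 in Control 1, 2 and 3 (limma adjusted p = 0.0505). Its limma adjusted p passed under 3 alternatives, at 0.0473 for a pseudocount of 0.1, at 0.0475 for rows averaging 10 or more, and at 0.0498 when CMS 2 was left out. Of all rows, 40 of 657, 25 of 399 and 8 of 645 passed under these 3, in the same order. The sums of oligodendrocyte (4 of 4), choroid plexus and ciliated cell (6 of 6) and muscle markers (4 of 4) overlapped between the groups. Within the choroid plexus and ciliated cell list, 2 of 6 markers did not overlap, against 25.9% of all rows. These went in opposite directions, with log2 differences of -1.11 for miR-449a-5p and 1.76 for miR-200b-3p. No marker of any list was at 0 in all libraries. Of the 31 markers tested, 0 passed (limma-trend, with 6 at an unadjusted p under 0.05, against 23.3% of all rows, 4 higher and 2 lower in CMS). The part of these cell types in the differences of miR-195-5p and miR-15b-5p was not tested.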

How the data were processed

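Total RNA of medial prefrontal cortex from 6 rats was made into miRNA libraries, which were read on an Illumina NextSeq instrument (per the labels' protocols). The aligner Novoalign 2.07.11 is named, per the submitters' processing notes. The sources used here do not give the trimming, genome build, annotation, treatment of reads that match several miRNAs, or normalization. The values the authors deposited are treated as a score, a normalized value rounded to whole numbers. Library sums are nearly equal, and for rows with a mean of 1 to 8 the variance was on average 0.53 times the mean in CMS and 0.471 times in Control, which counted reads would not give. Depth is therefore unknown and no counting interval is given. Blank cells were taken as 0.

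Samples were grouped by title. The test was limma-trend (limma 3.58.1, R 4.3.3) on log2(value + 1) for the 657 of 1465 rows that reached 1 in 3 or more samples, Benjamini-Hochberg adjusted over these rows, at a threshold of 0.05. This scale understates changes of low rows. Arm ratios used the same model on log2((5p + 1)/(3p + 1)) over 144 hairpins. Sums, shares and cluster ratios were compared by exact two-sided permutation over samples, which cannot go below 0.1. Every family row is named, beside listed relatives, markers, level neighbours and the 3 nearest patterns. Members and lists were chosen with earlier results of these data known. Of the relatives listed, miR-6216 was blank throughout, and miR-424-5p and miR-1907 were not analysed here. Alternatives were pseudocounts of 0.1 and 10, no filter, a minimum mean of 10, trimmed-mean rescaling, quantile normalization, no trend, annotated rows only, leaving out each sample, a replicate block, a wider denominator for shares and all arms in the sum. RefSeq tables of GRCr8 gave sequences, neighbours and coordinates, since the files hold none.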

Additional observations from a re-analysis of the deposited data

How the results depend on the processing

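Without each library in turn, the log2 difference of miR-195-5p lay between 0.44 and 0.65, that of its arm ratio between 0.46 and 0.86, that of miR-497-5p between -0.15 and 0.017, that of miR-15b-3p between -0.14 and 0.36 and that of the miR-16 arm ratio between -0.23 and 0.13. Family rows past the threshold were 0 to 1, the 1 being miR-195-5p without Control 1, and of all rows 55, 13 and 9 passed without Control 1, 2 and 3 and 2, 8 and 5 without CMS 1, 2 and 3. At an unadjusted p under 0.05 there were 3 family rows without Control 1 and with the replicate block (miR-195-5p, miR-15b-5p and miR-15a-5p), and 1, miR-195-5p, without Control 2, Control 3, CMS 2 or CMS 3. Which rows these were also changed with 3 settings: miR-195-5p and miR-15a-5p with trimmed-mean rescaling, miR-195-5p and miR-16-5p without CMS 1, and 1 row, miR-15a-5p, with quantile normalization. Under a pseudocount of 10 the arm ratio differences were 0.60 for miR-195 and 0.15 for miR-16. With annotated rows only, 11 of all rows passed, against 27. The cause of these changes was not tested. Of 270 alternative values over 24 results, 246 kept their direction and their side of the threshold, or stayed within 1.5 times for a count. Sums, shares and cluster ratios could not change sides, since their exact permutation p cannot go below 0.1. A change of size alone was not counted, as for miR-16-5p at 0.11 with trimmed-mean rescaling against 0.23. The 246 is therefore no measure of how stable the sizes were.

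Replicate numbers are shared by the groups, and the labels do not say whether they pair the samples. Over all rows tested, the correlation of deviations from group means was -0.11, -0.02 and -0.05 for replicates 1, 2 and 3. With 3 libraries per group these values cannot show whether the samples were paired. With the replicate block 1 of all rows and 0 family rows passed, and miR-195-5p had a limma adjusted p of 0.151. Unknown depth and rounding limit what can be read from rows under about 10.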
